A study of Mus musculus with 21 samples.

Results

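The interferon response genes examined here were 52 genes of the type I and type II interferon pathways, taken by gene name from a table of 22050 entries. They cover the receptors, the STAT and IRF factors, feedback inhibitors, RNA sensors, antiviral effectors, interferon-induced GTPases, the PARP9 complex and the immunoproteasome. Of the 52 names, 51 were found. Mx2 was not matched and Gbp6 had 2 entries, so that 52 entries were read. Testing was limited to entries whose normalized value averaged 1 or more over the 8 samples, which 41 did. The other 11 had 3 reads or fewer in every sample.

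Expression was measured by 3′ mRNA-seq in GFP+ epidermal keratinocytes sorted from mouse dorsal skin, with cells positive for CD140a, CD45 or CD31 gated out. Both groups carried K5-rtTA, in which the keratin 5 promoter drives the doxycycline-dependent activator in basal epidermal cells, together with tet-GFP. The p16 group also carried tet-p16, which encodes human p16. The mice came from crosses of FVB (K5-rtTA) with lines of mixed C57Bl6 and 129sv origin, and all received doxycycline from 3 weeks of age for 6 months. There were 4 control and 4 p16 samples, each of about 80000 cells pooled from 3 mice, so that single animals cannot be seen. In bulk samples fewer cells of a type and less RNA per cell cannot be told apart. The question was how chronic p16 expression in these cells changed their transcripts.

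The control samples held 1760953 to 3414362 reads on genes and the p16 samples 2884544 to 3202975. A normalized value is a gene's read count divided by a size factor of its sample, and 1 read was worth 0.742 to 1.53. The human CDKN2A transgene had values of 0.7, 1.3, 2.5 and 1.5 in the control samples and 1.6, 10.1, 16 and 7.4 in the p16 samples. The library labelled p16 replicate 1 thus lay within the control range for the transgene, although its value for Cd34, a hair follicle stem cell marker, was 8.8 and lay with the other p16 samples (8.0 to 16.4) rather than the controls (121.9 to 238.9). The Ifitm3 and Psmb8/Psmb5 results are given without it as well. The labels of replicate 3 in both groups word the library protocol differently from the others, and values without them are given for the members nearest to the test and for the summaries. In read counts over genes, p16 replicate 4 differed most from the other p16 libraries. Its chi-square per degree of freedom against replicates 1, 2 and 3 was 6.75, 8.96 and 8.18, beside 3.05 to 3.31 among those. Between control libraries it was 3.64 to 5.33.

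Interferons are secreted proteins that bind paired receptor chains on the cell surface. Type I interferons act through Ifnar1 and Ifnar2 and interferon gamma through Ifngr1 and Ifngr2. The receptors activate JAK kinases, which phosphorylate STAT proteins. A complex that holds Stat2 and Irf9 then binds the interferon-stimulated response element (ISRE), and STAT dimers bind the gamma-activated site (GAS). The genes so induced include proteins that block virus entry and replication, GTPases that attack intracellular microbes, and proteasome subunits that favour the production of peptides for MHC class I. Keratinocytes respond to both types of interferon.

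The promoters of the members were searched for the cores of these elements, since the list was chosen by pathway and not by sequence. RefSeq windows of the 250 bases before the transcription start (GRCm38.p6) were held for 43 members. The letters GAAANNGAAA, an ISRE core read on both strands, occurred in 16 of the 43 members (37.2%) and in 3.46% of 27025 genes. The letters TTCNNNGAA, a palindromic GAS core, occurred in 12 of the 43 (27.9%) and in 8.13% of all genes. A match in these letters is a description and not a shown binding site, and the sets may share bases where matches overlap. The lack of a match in the 250 bases does not show that an element is absent. The members with an ISRE core were Bst2, Gbp2, Gbp3, Gbp7, Ifit1, Ifit3, Ifitm2, Igtp, Irf2, Irgm1, Isg15, Oas1a, Oas3, Rsad2, Socs1 and Stat2. Of these 16, 13 were tested and 0 were called by limma at an adjusted p under 0.05, with 0 at an unadjusted p under 0.05. Of the 27 without the core, 23 were tested, 1 was called and 3 had an unadjusted p under 0.05. Over all genes tested 3.86% were called and 15.9% had an unadjusted p under 0.05. The 2 sets of members also differed in level. The median of their mean values was 16.25 with the core and 47.85 without it. A mean value of at least 10 was reached by 8 of the 16 and by 19 of the 27. Whether the core made a difference to the counts called was not tested.

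Windows are shown for 3 members of different families that carry the ISRE core (Isg15, Ifit1 and Igtp) and for the neighbouring paralogs Ifitm2 and Ifitm3, of which Ifitm3 was called in the comparison and Ifitm2 was not. Each is written 5′ to 3′ on the strand of its gene and ends at the base before the start, and capitals mark the matches to the ISRE or GAS core. The positions are chr4:156200819-156201068 (minus strand) for Isg15, chr19:34640639-34640888 (plus strand) for Ifit1, chr11:58199306-58199555 (plus strand) for Igtp, chr7:140955962-140956211 (minus strand) for Ifitm2 and chr7:141010745-141010994 (minus strand) for Ifitm3.
Isg15: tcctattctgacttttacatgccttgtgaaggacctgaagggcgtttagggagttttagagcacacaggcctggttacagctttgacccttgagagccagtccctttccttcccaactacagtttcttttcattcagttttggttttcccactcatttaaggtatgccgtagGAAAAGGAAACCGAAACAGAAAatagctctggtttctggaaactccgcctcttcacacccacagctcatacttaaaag
Ifit1: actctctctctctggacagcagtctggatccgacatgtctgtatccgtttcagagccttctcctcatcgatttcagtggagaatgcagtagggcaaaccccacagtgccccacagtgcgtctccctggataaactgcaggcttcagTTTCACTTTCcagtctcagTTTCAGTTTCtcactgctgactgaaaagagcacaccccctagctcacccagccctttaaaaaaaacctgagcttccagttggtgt
Igtp: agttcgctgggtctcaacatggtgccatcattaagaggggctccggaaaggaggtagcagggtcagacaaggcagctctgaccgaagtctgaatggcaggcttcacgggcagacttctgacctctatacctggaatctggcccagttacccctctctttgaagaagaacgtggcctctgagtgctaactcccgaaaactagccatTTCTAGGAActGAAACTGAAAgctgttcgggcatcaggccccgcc
Ifitm2: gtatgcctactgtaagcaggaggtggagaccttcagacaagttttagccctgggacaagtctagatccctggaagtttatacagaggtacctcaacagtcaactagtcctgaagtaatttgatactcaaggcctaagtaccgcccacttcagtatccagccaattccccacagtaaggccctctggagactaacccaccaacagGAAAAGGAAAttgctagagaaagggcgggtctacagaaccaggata
Ifitm3: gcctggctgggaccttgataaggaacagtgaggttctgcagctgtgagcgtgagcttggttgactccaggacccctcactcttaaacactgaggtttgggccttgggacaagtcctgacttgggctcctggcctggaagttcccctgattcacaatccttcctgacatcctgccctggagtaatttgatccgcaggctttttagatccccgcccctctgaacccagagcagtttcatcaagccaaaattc
Isg15 held 3 overlapping matches to the ISRE core within 78 bases of its start. Ifit1 held its matches on the opposite strand. In Igtp a GAS core lay just before the ISRE core. Ifitm2 held 1 ISRE core, and neither set of letters occurred in the window of Ifitm3, which does not show that Ifitm3 lacks such an element.

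Ifitm3 was the 1 of 41 tested members called by limma (adjusted p under 0.05), and it was higher in p16 cells. No member was called lower. That is 2.44% of the tested members, beside 3.86% of all 12782 genes tested (493 genes). At an unadjusted p under 0.05 there were 4 members, Ifitm3 and Trim25 higher and Irf7 and Ifi27 lower, which is 9.76% beside 15.9% of all genes. For Ifitm3, Trim25 and Ifi27 the 4 p16 values did not overlap the 4 control values, which is 7.32% of members beside 9.83% of all genes. The fitted log2 fold changes were above 0 in 15 members and below 0 in 26, with a median of -0.07 for the members and -0.003 for all genes.

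**Figure D1:**
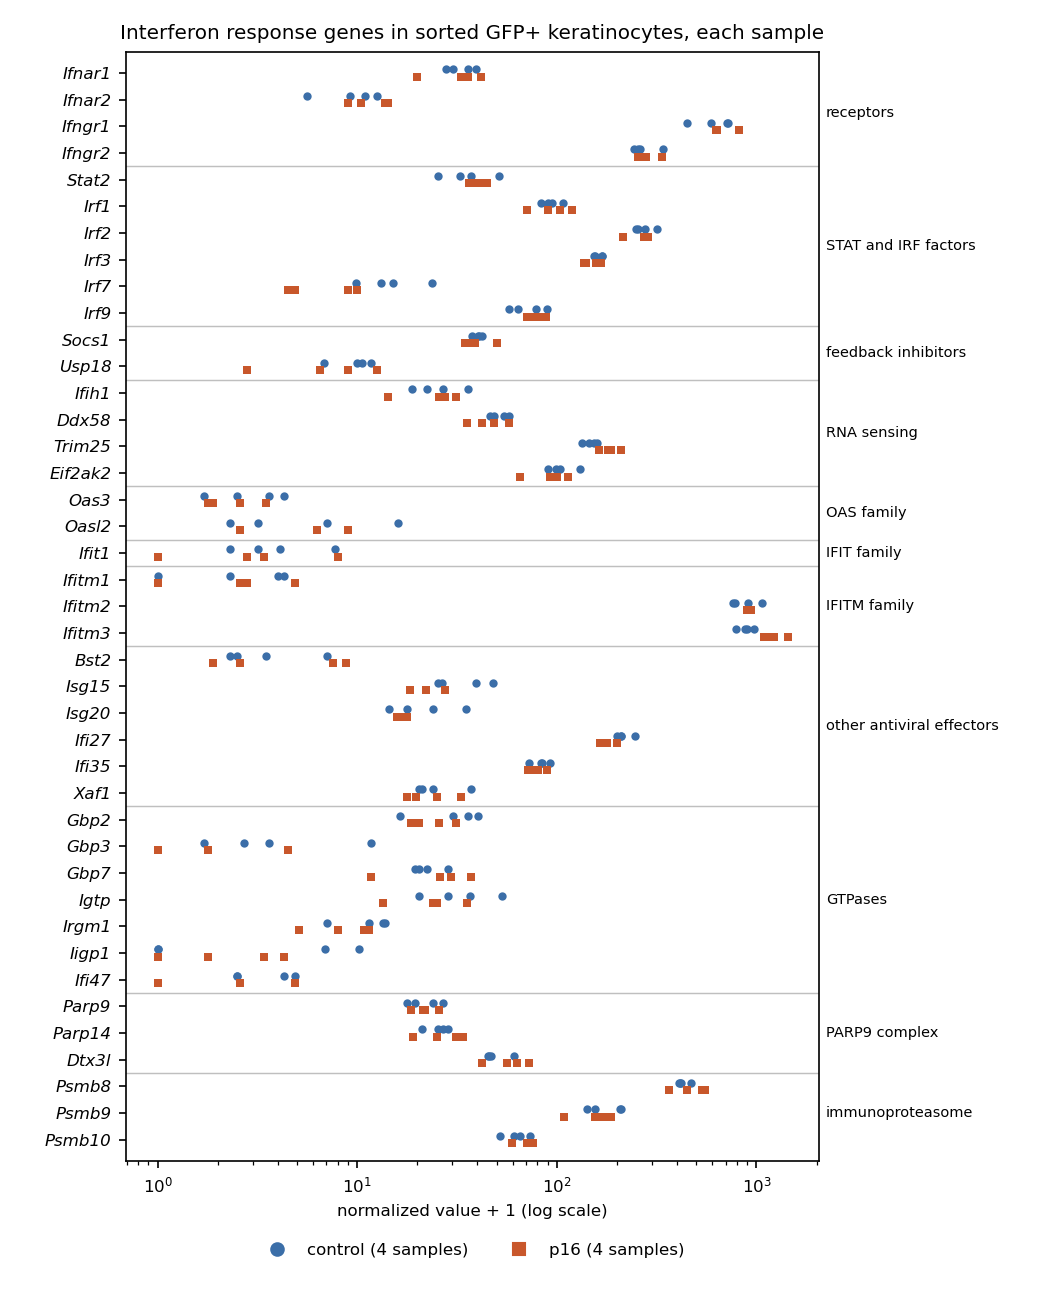
Normalized value plus 1 of the 41 tested interferon response genes on a log axis, with 1 point per sample (circles, 4 control samples; squares, 4 p16 samples), ordered by role. The groups overlapped for all members shown except Ifitm3, Trim25 and Ifi27.

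The precision differed with the level. For 27 of the 30 members with a mean value of at least 10, the 95% interval of the log2 fold change lay within 1 of 0, so that a change of more than 2-fold lay outside the interval. For 13 members it lay within 0.5 of 0. None of the 11 tested members under a mean value of 10 had an interval within 1 of 0, and for these a 2-fold change in at least 1 direction lay inside the interval.

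**Figure D2:**
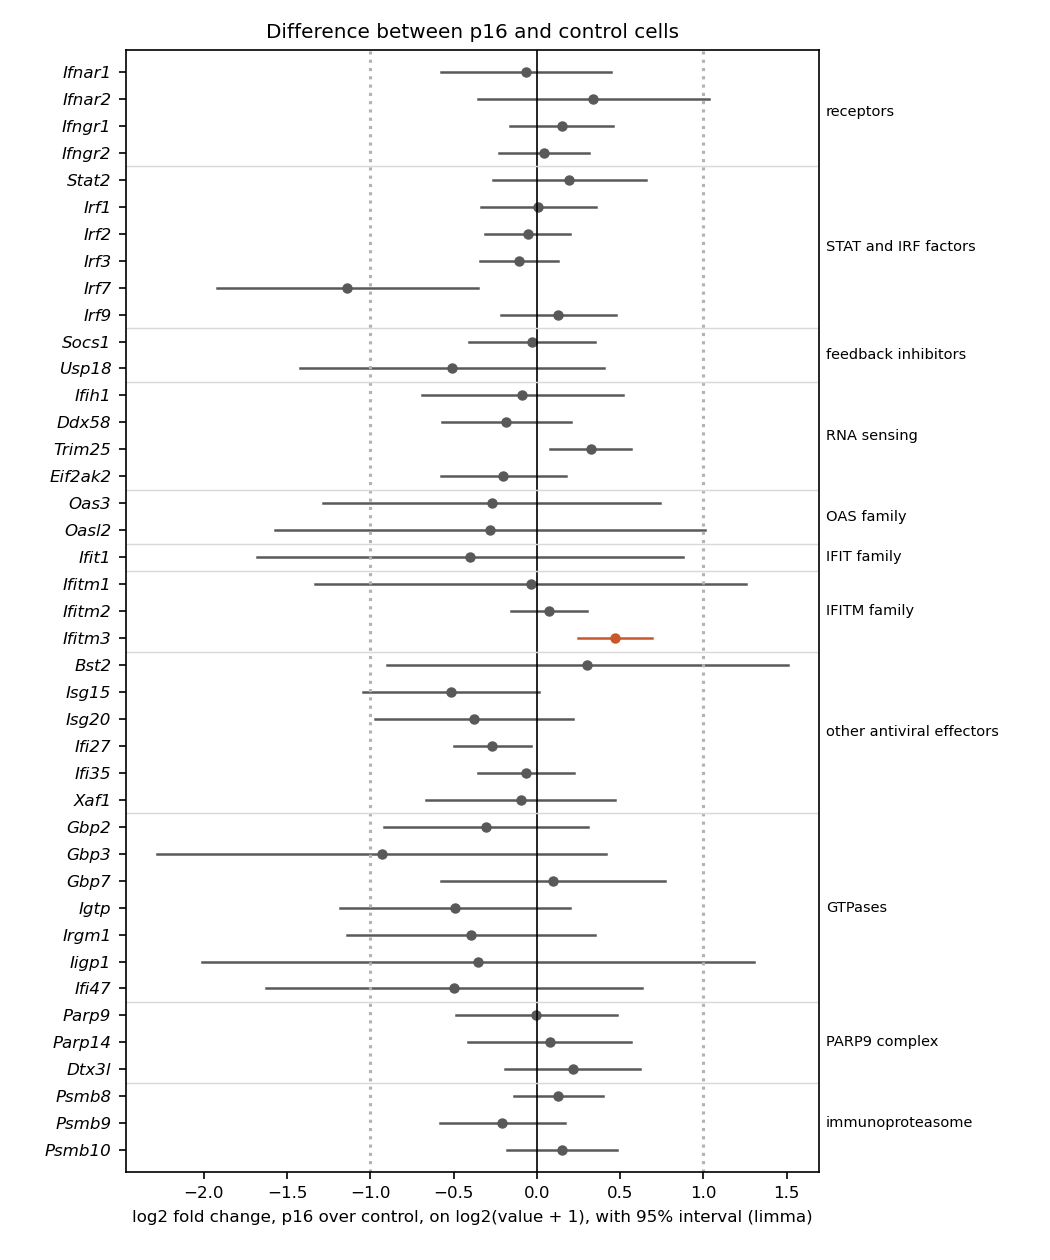
Fitted log2 fold change (p16 over control, on log2(value + 1)) of each tested member with its 95% interval from limma, n = 4 per group, ordered by role, with dotted lines at 1 and -1. Ifitm3, drawn in orange, was the 1 member with an adjusted p under 0.05, and the widest intervals belonged to members at low values such as Iigp1 and Gbp3.

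The receptors were present in both groups. Ifngr1, the ligand-binding chain of the interferon gamma receptor, had values of 711.4, 720.0, 588.8 and 447.6 in control and 630.9, 623.0, 633.1 and 820.6 in p16 samples. Ifngr2, its signalling partner chain, had 253.0, 241.3, 260.6 and 340.7 in control and 333.4, 260.0, 253.6 and 278.7 in p16 samples. The groups overlapped for both. Their log2 fold changes were 0.15 (95% interval -0.16 to 0.46) and 0.04 (-0.23 to 0.32). Of the type I receptor chains, Ifnar1 lay between 27.0 and 38.2 in control and 18.9 and 40.8 in p16 samples, and Ifnar2 between 4.6 and 11.6 in control and 8.0 and 13.2 in p16 samples. None of the 4 receptors was called, and the lowest adjusted p among them was 0.689.

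Among the factors that carry the signal to the nucleus, Irf7 had the lowest p. Irf7, a factor that amplifies type I interferon production and is itself interferon-induced (chromosome 7, 141262706 to 141266481, minus strand, GRCm38), had values of 8.9, 14.1, 22.6 and 12.2 in control samples. Its p16 values were 8.0, 3.9, 3.5 and 9.0. All but 1 of the p16 samples were below the lowest control sample, and the highest p16 value (replicate 4) just exceeded it. The log2 fold change was -1.14 ± 0.37 (SE, n = 4 per group), and it did not pass the limma test over all genes (adjusted p = 0.117). Only 88 reads in all 8 samples stood behind it, and the control sample at 22.6 and the p16 sample at 3.5 were the replicates 3. Without replicate 3 of both groups the log2 fold change was -0.72 (adjusted p = 0.478 by limma). Without p16 replicate 4 it was -1.33 (adjusted p = 0.0679 by limma), and Irf7 was not called in any of the 17 alternatives.

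The other tested factors differed less. Irf1, which activates MHC and immunoproteasome genes, had 82.3, 89.8, 93.5 and 106.9 in control and 118.3, 89.0, 70 and 102.8 in p16 samples. Irf2, which competes with Irf1 for its sites, had 316.0, 275.9, 247.2 and 253.6 in control and 283.8, 285.0, 213.7 and 271.3 in p16 samples. Irf3, the constitutive factor activated by nucleic acid sensors, had 152.1, 154.0, 167.9 and 166.5 in control and 155.9, 138.2, 135.7 and 166.1 in p16 samples. Control and p16 values overlapped for all 3 of them, and their log2 fold changes were 0.01, -0.06 and -0.11. Stat2 and Irf9, which act together at the ISRE, had log2 fold changes of 0.19 (95% interval -0.27 to 0.65) and 0.13 (-0.22 to 0.47). Irf8, a factor best known from myeloid cells, had 5 reads in the 8 samples together.

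The feedback inhibitors were not called. Socs1, which inhibits JAK kinases, lay between 36.7 and 41.1 in control and 33.7 and 49.2 in p16 samples. Usp18, which removes Isg15 from proteins and blocks signalling at Ifnar2, lay between 5.8 and 10.7 in control and 1.8 and 11.5 in p16 samples, with a log2 fold change of -0.51 (95% interval -1.43 to 0.40).

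Of the 4 RNA sensing genes, Trim25 was the 1 whose groups did not overlap. Trim25, a ubiquitin ligase that activates the RNA sensor RIG-I (chromosome 11, 88999376 to 89020293, plus strand), had values of 157.3, 132.2, 152.0 and 143.6 in control samples and 161.5, 178.8, 207.5 and 186.6 in p16 samples. All p16 samples were above all control samples, the library labelled p16 replicate 1 by the smallest margin. The log2 fold change was 0.32 ± 0.11 (SE, n = 4 per group), which did not pass the limma test over all genes (adjusted p = 0.155). The exact two-sided permutation p was 0.0286, the smallest that 4 samples against 4 can give. Any gene without overlap between the groups gets this value, so it adds nothing to the lack of overlap. Without replicate 3 of both groups the log2 fold change was 0.28 (adjusted p = 0.400 by limma).

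For the sensors themselves the groups overlapped. Ddx58, which encodes RIG-I, lay between 45.3 and 56.5 in control and 34.6 and 56.8 in p16 samples. Ifih1, which encodes the sensor MDA5, lay between 17.8 and 34.7 in control and 13.2 and 30.4 in p16 samples. Eif2ak2, the kinase PKR that stops translation on double-stranded RNA, had 89.0, 129.6, 97.7 and 102.4 in control and 99.1, 113.2, 91.3 and 64.1 in p16 samples. Their log2 fold changes were -0.18, -0.09 and -0.20, and none was called.

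The OAS and IFIT families, which are strongly induced by type I interferon in many cells, were near the limit of detection in both groups. OAS proteins make the messenger that activates RNase L, and IFIT proteins bind viral RNA. Of the OAS genes, Oas1a, Oas2 and Oasl1 had 3 reads or fewer in every sample, and Oasl1 had 0 in all. Oas3 lay between 0.7 and 3.3 in control and 0.8 and 2.5 in p16 samples. Oasl2 had 2.2, 1.3, 15 and 6.1 in control and 8.0, 1.6, 5.3 and 1.6 in p16 samples. Ifit1 had 2.2, 1.3, 6.7 and 3.1 in control and 2.4, 7.0, 1.8 and 0 in p16 samples, while Ifit2 and Ifit3 had 3 reads or fewer in every sample. In the controls the highest values of Oasl2 and Ifit1 were both in replicate 3. At 3 reads, the limit set by counting error alone corresponded to a normalized value of 2.23 to 4.58 depending on the sample.

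The IFITM family of membrane proteins, which hinder the entry of enveloped viruses, held the called member. Ifitm3 (ENSMUSG00000025492, chromosome 7, 141009586 to 141010770, minus strand) had values of 875.4, 786.7, 966.3 and 890.7 in control samples. Its p16 values were 1222.5, 1428.8, 1087.9 and 1143.7. Every p16 sample was above every control sample, with the p16 mean at 1221 ± 149 and the control mean at 879.8 ± 73.7 (SD, n = 4 each). The log2 fold change was 0.47 ± 0.10 (SE; 95% interval 0.25 to 0.69), or 1.39-fold between the means, with an adjusted p of 0.0206 by limma and an exact two-sided permutation p of 0.0286, the smallest possible.

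Ifitm3 was higher in p16 cells in all 17 alternative settings. Over these, the log2 fold change lay between 0.39 and 0.57, and the adjusted p was under 0.05 in 12 of them, with a range of 0.0015 to 0.111. Without the library labelled p16 replicate 1 the log2 fold change was 0.46 and the adjusted p was 0.0684. The adjusted p was also above 0.05 without control replicate 1 (0.0594), control replicate 2 (0.0618) or p16 replicate 2 (0.0543). Without replicate 3 of both groups the log2 fold change was 0.57 (adjusted p = 0.0356).

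Ifitm2 and Ifitm1 were not called, and whether they differed from Ifitm3 in their response was not tested. Ifitm2 (ENSMUSG00000060591, chromosome 7, 140954837 to 140955987, minus strand) had 1065.3, 776.4, 764.2 and 902.9 in control and 920.3, 900.2, 893.8 and 940.6 in p16 samples. All of its p16 values fell inside the control range, and the log2 fold change was 0.07 (95% interval -0.16 to 0.30). Ifitm1 had 18 reads in the 8 samples together and values between 0 and 3.9. The sources used here do not give how reads shared by these paralogs were counted, so the division of reads between Ifitm2 and Ifitm3 is uncertain.

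**Figure D3:**
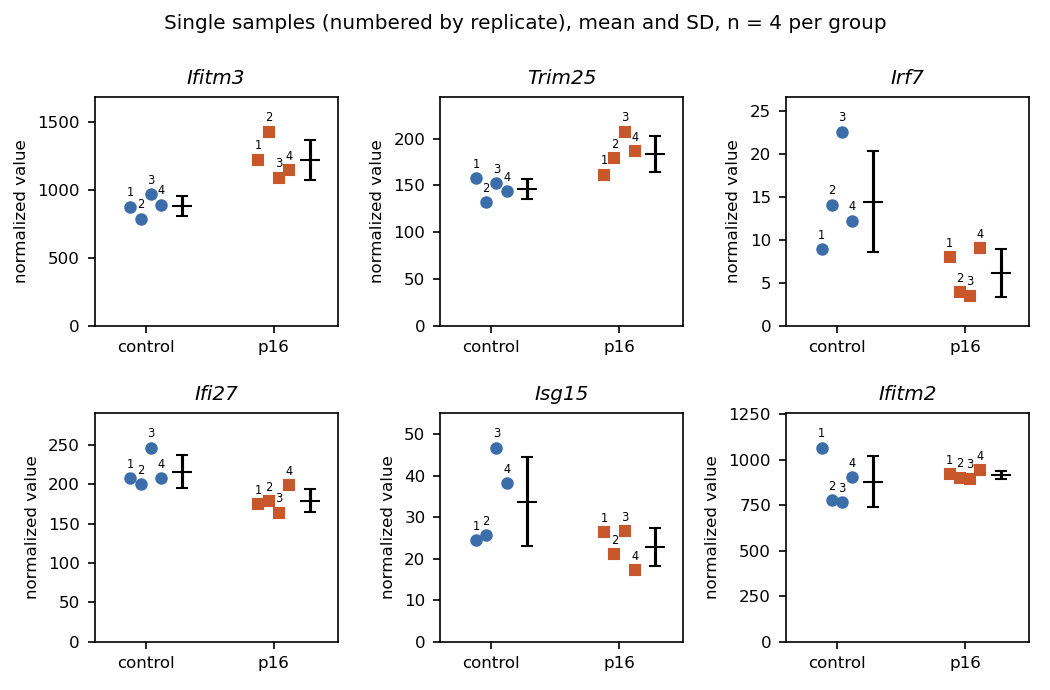
Normalized values of 6 members in each sample on linear axes from 0 (circles, control; squares, p16; small digits, replicate number), with the mean and SD of each group beside the points, n = 4 per group. Control and p16 points separate for Ifitm3, Trim25 and Ifi27 and overlap for Irf7, Isg15 and Ifitm2.

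Among the other antiviral effectors, Ifi27 was lower in every p16 sample than in every control sample. Ifi27, an interferon alpha-inducible protein of the mitochondrial and nuclear membranes (chromosome 12, 103434211 to 103440239, plus strand), had 207.7, 200.2, 246.4 and 207.8 in control and 174.3, 178.0, 164.0 and 199.0 in p16 samples. The closest samples, control replicate 2 and p16 replicate 4, were 1.2 apart. The log2 fold change was -0.27 ± 0.11 (SE, n = 4 per group), which did not pass the limma test over all genes (adjusted p = 0.233). The exact two-sided permutation p was 0.0286, which follows from the lack of overlap. Without replicate 3 of both groups the log2 fold change was -0.16 (adjusted p = 0.652 by limma).

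Isg15, the ubiquitin-like modifier and a widely used marker of the type I response (chromosome 4, 156199424 to 156200818, minus strand), had 24.5, 25.7, 46.8 and 38.2 in control and 26.4, 21.1, 26.6 and 17.3 in p16 samples. A pair of control samples was above all p16 samples and the other pair lay inside their range. The log2 fold change was -0.52 (95% interval -1.04 to 0.01, adjusted p = 0.329 by limma). Isg20, an RNA exonuclease, lay between 13.4 and 34.1 in control and 14.8 and 16.8 in p16 samples. Ifi35, which encodes a leucine zipper protein that binds Nmi, and Xaf1, which antagonises the apoptosis inhibitor XIAP, had log2 fold changes of -0.06 and -0.10. Bst2, or tetherin, which holds budding virus at the cell surface, lay between 0.9 and 7.8 over all samples. Mx1 and Rsad2, both widely used markers of a type I response, had 9 reads and 1 read in the 8 samples together, and Ifi44 had 0.

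The interferon-induced GTPases showed lower fitted values in 6 of 7 tested members, beside 6442 of all 12782 genes (50.4%), and none was called (lowest adjusted p 0.510). Without replicate 3 of both groups 4 of 7 were lower, with Iigp1 at 0.64 and Ifi47 at 0.04 on the log2 scale. Guanylate-binding proteins (Gbp) and immunity-related GTPases (Igtp, Irgm1, Iigp1, Ifi47) act on the vacuoles of intracellular microbes. Igtp lay between 19.3 and 51.9 in control and 12.4 and 34.4 in p16 samples, Gbp2 between 15.4 and 39.3 and between 17.7 and 30.4, and Irgm1 between 6.1 and 12.8 and between 4.1 and 10.4. The groups overlapped for all of them. Gbp7 was the 1 with a fitted value above 0 (log2 fold change 0.10, 95% interval -0.58 to 0.77). Gbp3, Iigp1 and Ifi47 had values of 10.7 or less in every sample, and both Gbp6 entries (ENSMUSG00000104713 and ENSMUSG00000079362) had 1 read or none in each sample. The division of reads among these related genes is likewise uncertain. The summed level of the family was 73.3 to 126.7 in control and 68.2 to 116.8 in p16 samples.

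The members of the PARP9 complex were not called. Parp9 and its partner Dtx3l, a ubiquitin ligase, act together on histones and viral proteins, and Parp14 is a related ADP-ribosyltransferase. Their log2 fold changes were 0.00 for Parp9 (95% interval -0.49 to 0.48), 0.22 for Dtx3l (-0.19 to 0.62) and 0.08 for Parp14 (-0.41 to 0.57).

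**Figure D4:**
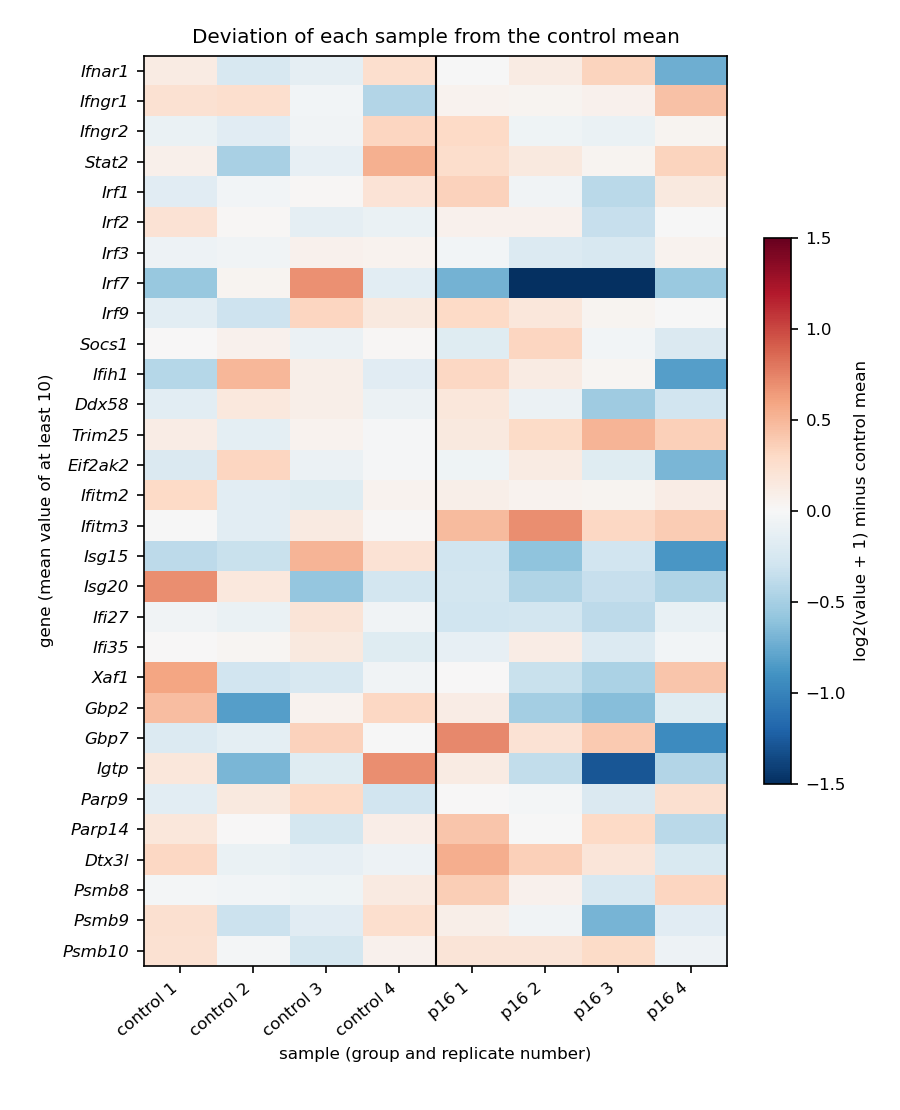
Deviation of log2(value + 1) from the control mean for the 30 members with a mean value of at least 10 (rows) in each of the 8 samples (columns), with colours ending at -1.5 and 1.5. No p16 column was uniformly red or blue, and the p16 replicate 3 column held blue cells for Irf7, Igtp, Psmb9 and Gbp2.

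The samples did not move as blocks. The median deviation of the 41 tested members from the control mean was 0.00, -0.05, 0.05 and 0.02 in the control samples and 0.06, 0.04, -0.20 and -0.11 in the p16 samples. The libraries labelled p16 replicate 1 and p16 replicate 2 thus lay above 0 and p16 replicates 3 and 4 below it. For all genes tested the median deviation lay between -0.0102 and 0.0096 in the 8 samples. Between the replicates 3 alone, p16 was below control in 28 of 41 members, with a median log2 difference of -0.29. Without the replicates 3 the median log2 fold change of the members was 0.02, against -0.07 with them. For all genes it was -0.004 without them and -0.003 with them. Of the 41 members, 8 changed sign (Oas3, Oasl2, Ifitm1, Ifi35, Iigp1, Ifi47, Parp9 and Parp14), and Usp18 moved from -0.51 to -0.25. The matching shares of all genes for the counts of 28 and 8 members were not computed. The part of the differing library protocol in these changes was not tested.

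The immunoproteasome subunits Psmb8, Psmb9 and Psmb10 replace the constitutive catalytic subunits Psmb5, Psmb6 and Psmb7 when interferon gamma acts. Psmb8 (chromosome 17, 34197721 to 34201454, plus strand) had 419.1, 414.5, 407.6 and 470.6 in control and 550.9, 446.6, 362.6 and 534.4 in p16 samples. Psmb9 (chromosome 17, 34181987 to 34187764, minus strand) had 207.0, 139.9, 154.5 and 207.8 in control and 186.3, 168.6, 107.3 and 154.6 in p16 samples. The p16 samples spread more widely than the controls for Psmb8, with p16 replicate 3 the lowest of all 8 samples for both genes. Psmb10 lay between 50.9 and 72.0 in control and 58.4 and 75.4 in p16 samples. The log2 fold changes were 0.13, -0.21 and 0.15, and none was called. Without replicate 3 of both groups they were 0.23, -0.10 and 0.02.

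The ratio of each immunoproteasome subunit to the subunit it replaces was computed within each sample, so that it does not depend on the scaling of the sample. On the log2 scale the Psmb8/Psmb5 ratio was -0.74 ± 0.16 in control and -0.49 ± 0.25 in p16 samples (SD, n = 4 each), with 1 of 4 p16 samples, the library labelled p16 replicate 1, above the highest control. The exact two-sided permutation p was 0.171, and 0.257 adjusted over the 3 ratios. Without that library the difference fell from 0.25 to 0.13 (exact permutation p = 0.343). The Psmb10/Psmb7 ratio was -3.89 ± 0.26 in control and -3.54 ± 0.27 in p16 samples, with 3 of 4 p16 samples above the highest control (exact permutation p = 0.143, adjusted p = 0.257). Without replicate 3 of both groups this difference fell from 0.35 to 0.13 (exact permutation p = 0.5). The Psmb9/Psmb6 ratio differed by 0.11 (exact permutation p = 0.657). None of the 3 ratios passed the permutation test. The smallest exact p of 4 samples against 4 is 0.0286, so a single separated ratio could not pass after adjustment over the 3. With samples left out, the exact p cannot fall under 0.05, so those p-values decide nothing. The constitutive subunits themselves had log2 fold changes of -0.12 (Psmb5), -0.32 (Psmb6) and -0.20 (Psmb7), and none was called by limma. A ratio can rise through its denominator as well as its numerator, and their parts were not tested.

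**Figure D5:**
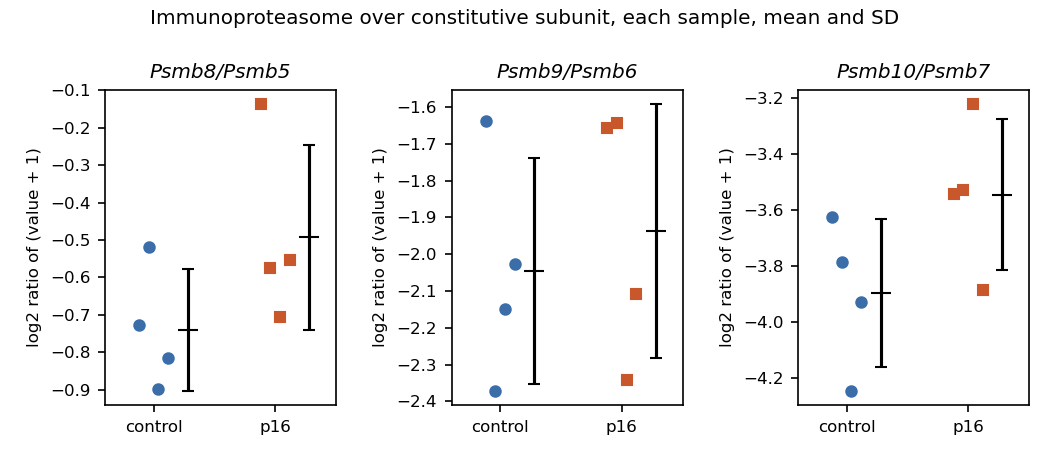
Log2 ratio of each immunoproteasome subunit to the constitutive subunit it replaces, on log2(value + 1), in each sample (circles, control; squares, p16) with the mean and SD of each group, n = 4. The axes do not start at 0, and the groups overlap for all 3 ratios.

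No pathway gene outside the members was called. A further 86 genes were looked up, 84 were found and 56 were tested, with a median log2 fold change of -0.03. By limma, 0 were called at an adjusted p under 0.05. An unadjusted p under 0.05 was reached by 8 genes, 3 with higher and 5 with lower values in p16 cells, which is 14.3% of those tested beside 15.9% of all genes. The 3 with higher values were Ikbke and Traf3, which relay signals from nucleic acid sensors to Irf3, and Cxcl9, a chemokine induced by interferon gamma. Those with lower values included Ifi30, a lysosomal thiol reductase, Mb21d1, which encodes the DNA sensor cGAS, Rtp4, which encodes a receptor chaperone, and Psmb6.

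Cxcl9 had 4.5, 5.1, 10 and 19.9 in control and 30.4, 44.5, 30.1 and 6.6 in p16 samples. All p16 samples but replicate 4 were above the highest control (log2 fold change 1.36 ± 0.52 SE, adjusted p = 0.200 by limma). Cxcl10, a chemokine of the same list, had 24.5, 21.8, 11.7 and 58.1 in control and 41.6, 32.8, 23.9 and 9.0 in p16 samples (log2 fold change -0.07, 95% interval -1.06 to 0.92). Of the 12 interferon ligands looked up, 10 had 0 reads in every sample, and Ifnk and Ifnz had single reads. At this depth ligand transcripts were not detectable, which does not show that they were absent.

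Markers of the cells that the gate could hold were read in the same samples. The keratinocyte markers (Krt5, Krt14, Krt1, Krt10, Trp63 and Itga6) were present throughout, with summed values of 24066 to 39891 in control and 25066 to 30039 in p16 samples. The 5 hair follicle stem cell markers summed to 11114 to 15294 in control and 8171 to 8628 in p16 samples, and did not overlap. Most of this sum came from Krt15. By limma, Cd34 (log2 fold change -3.74, adjusted p = 3.27e-06), Lhx2 (-2.16, 1.11e-04), Sox9 (-0.74, 0.0297) and Krt15 (-0.56, 0.0463) were called lower. Lgr5 (-0.69, 0.241) was not called. Of the 5 melanocyte markers the sum was 63.4 to 411 in control and 13.9 to 80.4 in p16 samples. Dct (log2 fold change -2.54, adjusted p = 0.0236 by limma) and Tyrp1 (-2.54, 0.0257) were called lower. Pmel (-1.82, 0.102) and Mlana (-0.55, 0.784) were not called, and Tyr was not tested. Ptprc, which encodes the gated CD45, lay at 1.6 or less in every sample. The 13 Langerhans and myeloid markers summed to 151.4 to 171.1 in control and 159.6 to 208.5 in p16 samples, with Lyz2 at 0 and most of the sum from Cd74 and the H2 genes. Cd207, the defining Langerhans cell marker, lay between 0 and 0.8 in control and 1.8 and 4.7 in p16 samples without overlap, from 17 reads in all (adjusted p = 0.0922 by limma). The 7 T cell markers, of which Trdc was not found, summed to 598.9 to 812.4 in control and 689.2 to 2920 in p16 samples, nearly all of it from Thy1. Cd3e lay at 3.9 or less in every sample, and Cd3d between 7.6 and 15 in control and 1.8 and 7.4 in p16 samples without overlap (log2 fold change -1.07, adjusted p = 0.172 by limma). Thy1 (0.83, 0.214) and Cd3g (0.89, 0.556) had higher fitted values, Lck (-0.45, 0.828) and Cd3e (-0.14, 0.952) had lower ones, and none was called. The 5 endothelial markers summed to 7.2 or less, with Cdh5, Kdr and Emcn at 0, and the 5 fibroblast markers to 21.4 or less, with Lum at 0. Col1a2 was lower in all p16 than in all control samples (log2 fold change -1.51, adjusted p = 0.0571 by limma). Col1a1 (1.09, 0.285) and Pdgfra (0.49, 0.756) had higher fitted values, Col3a1 (-0.77, 0.572) had a lower one, and none was called. The part of these cell types in the values of Ifitm3, Irf7, Trim25 and Ifi27 was not tested.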

How the data were processed

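Groups follow the sample labels. The table's control and p16 columns were matched to the 8 Series I titles. The 13 samples of a second profiling were not analysed here. The members and gene lists were chosen with earlier results of these data known.

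The authors prepared the libraries by an adapted CEL-Seq2 protocol, trimmed reads with Cutadapt and aligned them to GRCm38 with TopHat2. The submitters' processing notes also name HTSeq and DESeq2. The annotation version and the use of molecular identifiers are not given in the sources used here. The deposited signal values are read counts divided by a size factor per sample and rounded to 1 decimal. Whole reads were recovered from 100% of values, each within 0.06 of a whole multiple of what 1 read is worth, with 1760953 to 3414362 reads per sample. Limits at 3 reads cover counting error only. The authors' group means and their own comparison columns (log2 ratio, test statistic, p-value and adjusted p-value) were not used.

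The 12782 genes averaging 1 or more were tested on log2(value + 1) with limma 3.58.1 (eBayes with trend, R 4.3.3) and Benjamini-Hochberg adjustment, in a 4 against 4 design. Fold changes on this scale understate those of low genes. By the study's methods the replicates were separate pools of mice from several independent experiments. Which sample belongs to which experiment is not given in the sources used here, so no term for it was fitted. edgeR 4.0.16 and DESeq2 1.42.0 on recovered reads were alternatives, beside other pseudocounts, filters, scalings and samples left out. Exact permutation tests used scipy 1.17.1. The fits were tested on simulated data.

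Members were given with the value in every sample where called, at an unadjusted p under 0.05, without overlap, or among the 12 of highest mean, and Isg15 and the low Oasl2 and Ifit1 were added after their values were seen. Coordinates are from GENCODE M21 and promoter windows from RefSeq, both on GRCm38. The windows of Parp14, Mx2, Ifi27, Oas2, Mx1, Iigp1, Usp18, Gbp6 and Parp9 were not used here. The values of 1 further pathway gene are not reported here.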

Additional observations from a re-analysis of the deposited data

Results flagged for a closer look

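In 3 of the 90 groups of 4 samples examined, 1 sample lay far from the other 3, where chance gives about 1 group in 20. Ifngr1 had a value of 820.6 in p16 replicate 4, beside 623.0 to 633.1 in the other p16 samples. Ifi27 had 246.4 in control replicate 3, beside 200.2 to 207.8 in the other controls. Dtx3l had 60.1 in control replicate 1, beside 44.3 to 45.8 in the other controls.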

How the results depend on the processing

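The count of members called lower was 0 in all 17 alternatives, and that called higher was 1 in 12 of them. It was 0 when eBayes was run without a trend and ranged from 0 to 1 when 1 sample was left out. The median log2 fold change of the members ranged from -0.12 to 0.02, and 3 to 4 members were without overlap in the 10 alternatives that could change this. Single fits were followed for members called, at an unadjusted p under 0.05, without overlap or among the 12 of highest mean. Among these, leaving out 1 sample turned the sign of Ifngr2 (-0.040 to 0.153), Irf1 (-0.104 to 0.146) and Irf2 (-0.101 to 0.042). It also turned the Psmb9/Psmb6 ratio (-0.00019 to 0.24), and none of these was called. The signs of the other members with 1 sample left out were not followed. Irf7 kept its sign in all 17 alternatives, with adjusted p from 0.0679 to 0.478. Genes called over the whole table fell from 493 to 238 without a trend, to 223 without replicate 3 of both groups, to 263 without control replicate 1 and to 261 without p16 replicate 1. Scaling by total reads moved the median of all genes to 0.03. The cause was not tested. Samples with the same number in both groups had correlations of deviations of 0.11, 0.02, 0.06 and 0.18. Control replicates 1, 3 and 4 correlated best with the p16 sample of the same number. For replicates 1 and 3 the margin was small (0.106 against 0.097 and 0.064 against 0.057). Control replicate 2 correlated best with p16 replicate 1 (0.13). Whether a shared number means a shared experiment is not given in the sources used here, and the main fit did not pair the samples. With the replicate block 608 genes were called, the members called stayed at 1 higher and 0 lower, and Ifitm3 had an adjusted p of 0.0258 by limma. At this depth the OAS, IFIT, Mx1, Rsad2 and ligand values rested on few reads or none.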
